A study of Mus musculus with 20 samples.

Results

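The genes that move calcium in heart muscle cells were followed in whole hearts of E13.5 mouse embryos, 10 genes in all: Ryr2, Atp2a2, Pln, Slc8a1, Cacna1c, Casq2, Trdn, Jph2, Hrc and Calr. The set was given by gene name and holds 10 of the 48795 genes in the table of normalised values, which are read counts divided by a size factor for each library. The study compared mouse models of Down syndrome with their wild-type (WT) littermates, 5 hearts in each of 4 groups. Dp3Tyb embryos carry the duplication Dp(16Mir802-Zbtb21)3TybEmcf and Ts1Rhr embryos the duplication Dp(16Cbr1-Fam3b)1Rhr, both of segments of mouse chromosome 16 and both on a C57BL/6J background. Each strain has its own WT group, labelled wt_d for Dp3Tyb and wt_t for Ts1Rhr, and no embryo received a treatment. All 5 Dp3Tyb hearts are described as having heart defects, whereas 2 of the 5 Ts1Rhr hearts (replicates 1 and 2) are so described and 3 are not. The study describes Ts1Rhr as a strain without these defects, so the descriptions were not used to group hearts.

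In heart muscle the action potential opens the L-type calcium channel in the surface membrane, and the calcium that enters opens the release channel of the sarcoplasmic reticulum, the internal calcium store. Contraction ends when a pump returns calcium to the store and an exchanger carries the rest out of the cell. Surface and store membranes meet at the dyad, where structural proteins hold the channels opposite each other. In the embryo the heart beats from early stages, before this machinery is mature.

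The genes lie on 9 chromosomes and none is on chromosome 16, which carries the duplicated segments. By RefSeq on GRCm38.p6, Ryr2, the release channel, is at chr13:11553099-12106945. Atp2a2, the calcium pump SERCA2, is at chr5:122453513-122502225, and Pln, phospholamban, which inhibits that pump, is at chr10:53337686-53345999. Slc8a1, the sodium-calcium exchanger, is at chr17:81373105-81738387, and Cacna1c, the pore subunit of the L-type channel, is at chr6:118587240-119197384. Casq2, the main calcium buffer of the cardiac store, is at chr3:102086415-102146514. Trdn, triadin, which ties the buffer to the release channel, is at chr10:33083483-33476709, and Hrc, a calcium-binding protein of the store, is at chr7:45335269-45338973. Jph2, junctophilin, which bridges the dyad membranes, is at chr2:163336242-163398049, and Calr, calreticulin, a calcium-binding chaperone of the endoplasmic reticulum, is at chr8:84842088-84846931. Exons of Atp2a2 overlap those of Anapc7 on the opposite strand, and exons of Pln overlap those of Cep85l, and whether the counting used strand was not given in the sources used here. The partners were far lower, with mean values of 764 for Anapc7 beside 32533 for Atp2a2 and of 143 for Cep85l beside 12668 for Pln.

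The transcripts differ in how much A they hold, a property that is set beside the differences between hearts further on. The share of A in the canonical transcript (GENCODE vM39) was 34.1% for Trdn, 31.7% for Pln, 30.6% for Hrc, 26.3% for Calr, 23.8% for Atp2a2 and 19.7% for Jph2, and the median of 15202 genes was 25.4%. The coding stretch of 60 bases with the most A is shown for 7 of the genes, with each A in capitals. They are the genes at both ends of the difference between libraries described further on, and Pln and Ryr2, for which the stretch and that difference go together less well. The stretch holds 39 A in Trdn (transcript positions 4334 to 4393, exons 16 to 18), 30 in Hrc (1870 to 1929, exon 1), 31 in Calr (1341 to 1400, exon 9), 27 in Atp2a2 (989 to 1048, exon 5), 20 in Jph2 (759 to 818, exon 1), 20 in Pln (586 to 645, exon 2) and 33 in Ryr2 (13780 to 13839, exons 90 and 91).
Trdn: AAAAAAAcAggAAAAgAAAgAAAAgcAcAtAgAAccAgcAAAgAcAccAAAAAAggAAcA
Hrc: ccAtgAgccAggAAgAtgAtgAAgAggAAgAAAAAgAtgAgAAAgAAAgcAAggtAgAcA
Calr: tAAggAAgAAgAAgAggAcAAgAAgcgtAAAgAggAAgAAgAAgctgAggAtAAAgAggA
Atp2a2: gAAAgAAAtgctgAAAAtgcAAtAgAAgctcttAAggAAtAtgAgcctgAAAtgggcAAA
Jph2: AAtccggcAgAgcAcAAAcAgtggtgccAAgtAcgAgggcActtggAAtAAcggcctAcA
Pln: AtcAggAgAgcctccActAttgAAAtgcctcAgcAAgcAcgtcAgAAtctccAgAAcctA
Ryr2: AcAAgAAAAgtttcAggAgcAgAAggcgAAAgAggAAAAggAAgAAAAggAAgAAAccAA
In the other 3 genes the stretch holds 31 A (Slc8a1), 27 A (Cacna1c) and 27 A (Casq2), so a stretch rich in A is not particular to Trdn, Hrc and Calr. Pln, second in A over the transcript, has 25.6% A in its coding sequence. Trdn is spliced in many ways, and the table gives 1 value for each gene, so which isoform the hearts carried was not analysed here. Over its 44 annotated coding transcripts the share of A ran from 29.8% to 49.7%. For Hrc it ran from 21.3% to 30.7%, for Ryr2 from 23.5% to 31.4% and for Cacna1c from 17.2% to 26.1%. The range was narrower for Jph2, from 19.7% to 22.4%. The order of the genes by their share of A therefore depends on the transcript taken.

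Depth was 6600839 to 19634514 reads a library, and each of the 10 genes had at least 793 reads in every library. The 18 cardiomyocyte markers were all present, with summed values of 402246 to 637907, as were markers of mesenchyme, endothelium, epicardium, smooth muscle, macrophages and erythroid cells. Dyrk1a, a gene inside both duplications, was 2403 to 3196 in Dp3Tyb against 1692 to 2287 in its WT group and 2413 to 2759 in Ts1Rhr against 1740 to 2339. In 7 libraries over 10% of reads came from mitochondrially encoded genes (10.5% to 19.5%) and the other 13 had 4.85% to 7.17%. They were WT replicate 5 and Dp3Tyb replicate 5 in one cohort, and WT replicates 1, 2 and 4 and Ts1Rhr replicates 1 and 2 in the other, so the 2 Ts1Rhr hearts described as having defects are also the 2 in this set. In sample order all of them but WT replicate 4 of the Ts1Rhr cohort follow each other directly. What goes with that order was not tested. No marker of any list passed the threshold by limma, but the log2 fold changes of some lists were mostly of 1 sign. In Dp3Tyb 14 of 18 cardiomyocyte markers had one below 0 (median -0.08), and 7 of 7 macrophage (0.23), 8 of 8 fibroblast and cushion mesenchyme (0.15) and 6 of 6 lung and foregut markers (1.89) had one above 0, as did 7 of 8 erythroid (0.13), 3 of 3 liver (0.32) and 4 of 5 neural markers (0.65). In Ts1Rhr 7 of 7 macrophage (0.31), 8 of 8 erythroid (0.29) and 7 of 8 fibroblast and cushion mesenchyme markers (0.06) were above 0, and 6 of 6 lung and foregut markers (-1.70) were below. An unadjusted limma p under 0.05 was found for 1 macrophage, 1 liver and 1 neural marker in Dp3Tyb (2.8% of all genes), and for 4 macrophage, 2 lung and foregut and 1 liver marker in Ts1Rhr (5.52% of all genes). The cardiomyocyte markers were taken into the fit as a score, with values given further on, and the part of the other lists in the results was not tested. In whole hearts, fewer cells of a type and less RNA in each cell cannot be told apart.

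**Figure D1:**
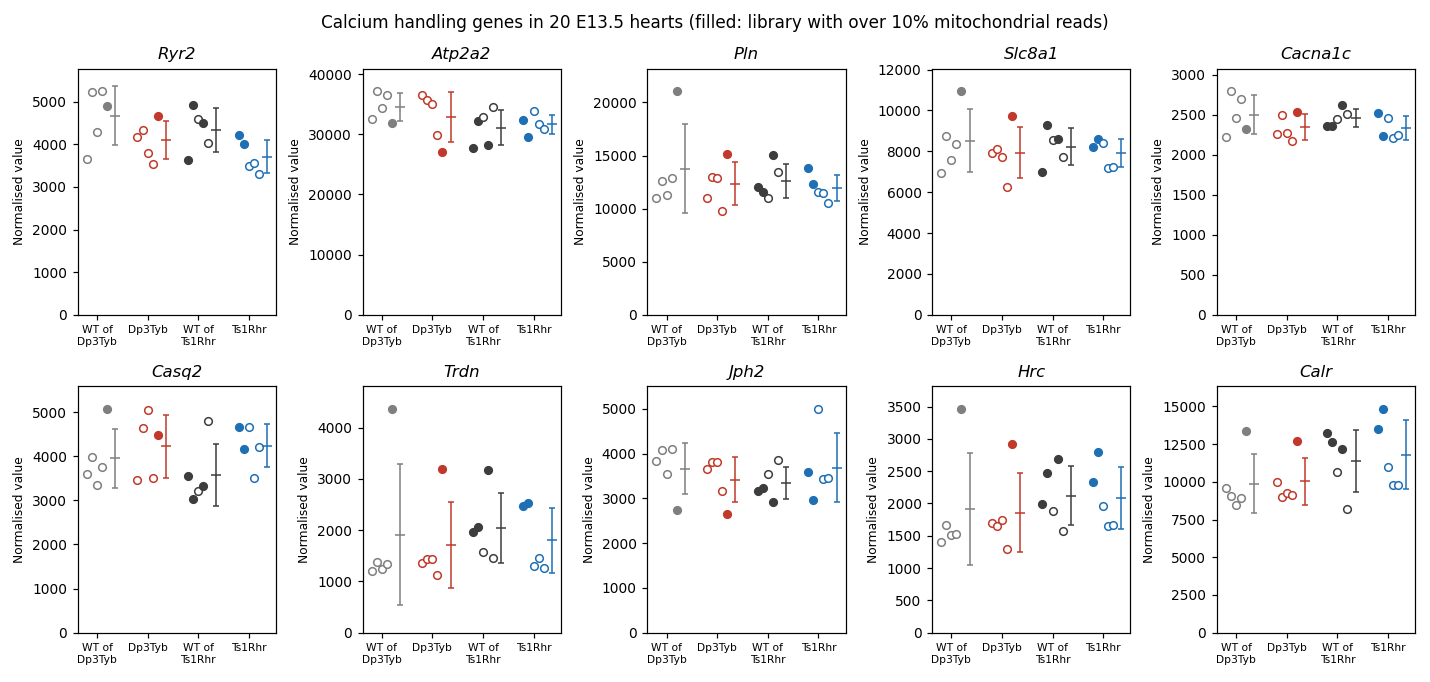
Normalised value (vertical axis, from 0) of the 10 calcium handling genes in 20 hearts, by group. Each point is a heart, filled where over 10% of reads were mitochondrial, and the bar to the right of each group is its mean ± SD (n = 5). Trdn, Hrc and Calr are highest in the filled points of every group, while no gene separates mutant from WT hearts.

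Levels were compared between genes per kb of the canonical transcript. Atp2a2 was highest at 7330.5 ± 676 (SD, n = 20) normalised reads per kb, and Calr followed at 4709 ± 876, Pln at 3086 ± 593 and Slc8a1 at 2496 ± 327. Each was above the next in 20, 20 and 19 of the 20 hearts, although the ranges of neighbours overlapped. A clear gap separated Slc8a1 from the next group, since its lowest heart (1915 per kb) exceeded the highest heart of Jph2 (1174 per kb).

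That second group held Jph2, Hrc and Casq2, genes of the store and the dyad. Jph2 was at 829 ± 128, Hrc at 815 ± 240 and Casq2 at 723 ± 119 per kb, and their order was not fixed, since Jph2 was above Hrc in 13 of 20 hearts and Hrc above Casq2 in 11. Below them, without overlap, stood the channels, Cacna1c at 362 ± 26.3 and Ryr2 at 249 ± 35.3. Trdn was lowest at 168 ± 77.9, and Ryr2 was above it in 17 hearts. The order depended on the length used. Over merged exons Calr (2825 per kb) was above Atp2a2 (2658), and Slc8a1 went from rank 4 to rank 7, its merged exons being 18996 bases long and its canonical transcript 3265. At 429 per kb it was then below Hrc (767), Casq2 (700) and Jph2 (509), so the gap named above depended on the length. Ryr2 (139) was then above Cacna1c (108).

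Paralogs of these genes that serve other tissues were also measured. Casq1, calsequestrin of skeletal muscle, was at 1273 ± 202 normalised reads per kb, above Casq2 in 20 of 20 hearts and 1.79 ± 0.334 times it. Its value ran from 2021 to 3715, and the only gene overlapping its exons, Gm17224, had a mean value of 1.04. Among other paralogs known from skeletal muscle, the value of the release channel Ryr1 was 3.83 to 93.9 and that of the pump Atp2a1 11.7 to 119. Both highest values came from WT replicate 1 of the Dp3Tyb cohort, which also had a summed skeletal muscle marker value of 1732 against 379 in the next library, yet its Casq1 was 2468, inside the range of the others. Of the 9 skeletal muscle markers, 3 had a median under 10, among them Myf5 and Pax7 with a median of 0, and the others were at 10 or above. Their summed value was at least 214 in every library. The part of skeletal muscle in the Casq1 values was not tested.

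Of the remaining paralogs, again as values not divided by length, Ryr3, a release channel found in many tissues, was at 310 to 553, Atp2a3 at 88.0 to 177, Slc8a2 at 129 to 215, Slc8a3 at 28.4 to 78.3 and Jph1 at 182 to 382. Jph4 was at 11.7 to 49.2, Calr3 at 7.17 to 18.7 and Calr4 at 2.80 to 19.5, and Jph3 had no reads in at least 1 heart. Reads shared by near-identical stretches of paralogs could have been split between them in the counting.

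The first comparison asked whether the calcium handling genes changed in Dp3Tyb hearts, the strain with heart defects. None of the 10 passed the threshold (limma, Benjamini-Hochberg adjusted p under 0.05 over 14763 genes) in Dp3Tyb, where 0.0542% of all genes tested did. None had an unadjusted p under 0.05 either, against 2.8% of all genes, and edgeR and DESeq2 on recovered reads called none of them. The median log2 fold change of the 10 genes was -0.08 beside -0.00 over all genes. Of the 10, 8 were lower and 2 higher, where 51.1% of all genes were lower. The median became 0.02 without WT replicate 5, with 5 genes each way, -0.15 without Dp3Tyb replicate 5, with 9 lower, and -0.00 with the cardiomyocyte score as a term, with 5 each way. It was -0.02 with array weights and -0.04 without the libraries over 10% mitochondrial reads, with 6 lower in each. The values of the 2 groups overlapped for all 10 genes, whereas they were apart for 0.975% of all genes.

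The narrowest intervals belonged to the L-type channel and the pump. Cacna1c was 2222, 2799, 2458, 2704 and 2328 in the 5 WT hearts and 2256, 2492, 2268, 2168 and 2541 in the 5 Dp3Tyb hearts. Atp2a2 was 32567, 37190.5, 34391, 36579 and 31853 in WT and 36594, 35767, 34998, 29826 and 27126 in Dp3Tyb. The groups overlapped for both genes, and the 95% intervals of the fold change ran from 0.831 to 1.06 for Cacna1c and from 0.812 to 1.11 for Atp2a2.

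Ryr2 had the log2 fold change farthest from 0 of the 10 in this strain. Its value was 3647, 5233, 4291, 5249.8 and 4906 in WT and 4167, 4327, 3788, 3538 and 4660.2 in Dp3Tyb. All 5 Dp3Tyb hearts were under the WT mean of 4665 ± 689 (SD, n = 5), but WT replicate 1 was lower than 4 of them. The log2 fold change (of value + 1, as throughout) was -0.18 ± 0.11 (SE), with a 95% interval of -0.43 to 0.07 and an unadjusted limma p of 0.142. With the cardiomyocyte marker score as a term it was -0.09 ± 0.09.

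Trdn and Hrc had the widest intervals. Trdn was 1204, 1386, 1251, 1333 and 4369 in WT and 1368, 1435, 1429, 1133 and 3203 in Dp3Tyb, and Hrc was 1411, 1673, 1514, 1535 and 3464 in WT and 1691, 1653, 1742, 1291 and 2915 in Dp3Tyb. Replicate 5 of each group stood far above the other 4 for both genes. The log2 fold change was -0.05 ± 0.38 (interval -0.88 to 0.78) for Trdn and -0.01 ± 0.26 (-0.59 to 0.57) for Hrc. With the mitochondrial share as a term, an alternative added after the data were seen, they were -0.00 ± 0.05 (-0.11 to 0.11) and 0.02 ± 0.06 (-0.12 to 0.16).

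The other genes lay between these. The log2 fold change of Pln in Dp3Tyb was -0.13 ± 0.18. That value rested on WT replicate 5, at 21086 against 11004 to 12904 in the other WT hearts. Without that heart it turned sign, to 0.04 above 0. Log2 fold changes were -0.10 ± 0.14 for Slc8a1, -0.10 ± 0.13 for Jph2, 0.09 ± 0.14 for Casq2 and 0.03 ± 0.14 for Calr. Without WT replicate 5 Slc8a1 was at -0.0035 and Jph2 at -0.20, and without Dp3Tyb replicate 5 they were at -0.17 and -0.011.

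The same question was asked of Ts1Rhr hearts. Again none of the 10 genes passed the threshold by limma, where 0.0269% of 14867 genes tested did, and none passed by edgeR or DESeq2. Ryr2 alone had an unadjusted p under 0.05, which 5.52% of all genes had. The median log2 fold change was -0.04 beside -0.00 over all genes. Of the 10, 6 were lower and 4 higher, where 50.4% of all genes were lower, and the median ran from -0.07 (without Ts1Rhr replicate 2) to 0.01 (without WT replicate 2) when 1 library was left out. It was -0.11 with array weights, with 7 lower, -0.08 without the libraries over 10% mitochondrial reads and 0.01 with the mitochondrial share as a term. The values of the 2 groups overlapped for all 10 genes, whereas they were apart for 1.12% of all genes.

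Ryr2 was 3629, 4922, 4599, 4507 and 4028 in the WT group and 4214, 4004, 3486, 3549.8 and 3296 in Ts1Rhr. All 5 mutant hearts were again under their WT mean (4337 ± 509), and 3 of them were under every WT heart. The log2 fold change was -0.22 ± 0.09 (95% interval -0.43 to -0.02, limma, adjusted p = 0.795 and an unadjusted p of 0.0363). Across 20 other settings its adjusted limma, edgeR or DESeq2 p was between 0.197 and 0.999. Leaving out the libraries with over 10% mitochondrial reads gave -0.32 ± 0.09 with 3 mutant and 2 WT hearts.

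Ryr2 was therefore lower than its own WT mean in all 10 mutant hearts of the 2 strains, by 0.18 and 0.22 on the log2 scale. It was the only one of the 10 genes of which this was true, and 1.9% of the 14605 genes tested in both strains were lower in this way. The count was narrow, since Dp3Tyb replicate 5 (4660.2) was just under its WT mean (4665), and it became 9 of 10 hearts when WT replicate 2, 4 or 5 of the Dp3Tyb cohort or WT replicate 2 of the Ts1Rhr cohort was left out of that mean. With the cardiomyocyte score as a term the log2 fold change was -0.09 in Dp3Tyb and -0.22 ± 0.09 in Ts1Rhr. None of the 10 was higher in all 10 mutant hearts, as 1.25% of those genes were. The difference between the strains in this change was 0.04 ± 0.15 on the log2 scale (interval -0.28 to 0.36), which did not pass the limma test.

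Casq2, which buffers the calcium that Ryr2 releases, had a fold change of the opposite sign. It was 3547, 3028, 3209, 3319 and 4798 in the WT group and 4673, 4157, 4670.2, 3497 and 4214 in Ts1Rhr. Of the 5 mutant hearts 4 were above the WT mean, and the log2 fold change was 0.26 ± 0.12 (interval -0.01 to 0.52, limma, adjusted p = 0.795 and an unadjusted p of 0.0571), with adjusted p-values of 0.278 to 0.999 in other settings. Without the libraries of over 10% mitochondrial reads it was 0.06 ± 0.19.

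Cacna1c and Atp2a2 again had the tightest bounds. Cacna1c was 2366, 2359.8, 2447, 2620.2 and 2509 in WT and 2521, 2232, 2462, 2207 and 2251 in Ts1Rhr, with a 95% interval of the fold change of 0.865 to 1.04. Atp2a2 was 27779, 32177, 32829, 28219.7 and 34495 in WT and 32370.4, 29510.5, 33820.3, 31678 and 30886 in Ts1Rhr, with an interval of 0.906 to 1.15. The groups overlapped for both genes.

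For the other 6 genes, log2 fold changes in Ts1Rhr were 0.12 ± 0.12 for Jph2, 0.05 ± 0.15 for Calr, -0.03 ± 0.17 for Hrc, -0.05 ± 0.09 for Slc8a1, -0.08 ± 0.10 for Pln and -0.20 ± 0.25 for Trdn. Trdn was 1966, 2071, 1568, 3177 and 1456 in this WT group and 2471, 2523, 1300.1, 1450.2 and 1264 in Ts1Rhr. Calr was 13253, 12624, 10648, 12199.7 and 8174 in WT and 13524, 14843, 10998, 9773 and 9826 in Ts1Rhr. In both groups the high values of both genes were those of the libraries with over 10% mitochondrial reads. The highest Jph2 value of the series, 5003, was in Ts1Rhr replicate 3, and the other 4 Ts1Rhr hearts ranged from 2976 to 3589, so that the fold change of Jph2 was 0.0079 without that heart and 0.20 without replicate 2.

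**Figure D2:**
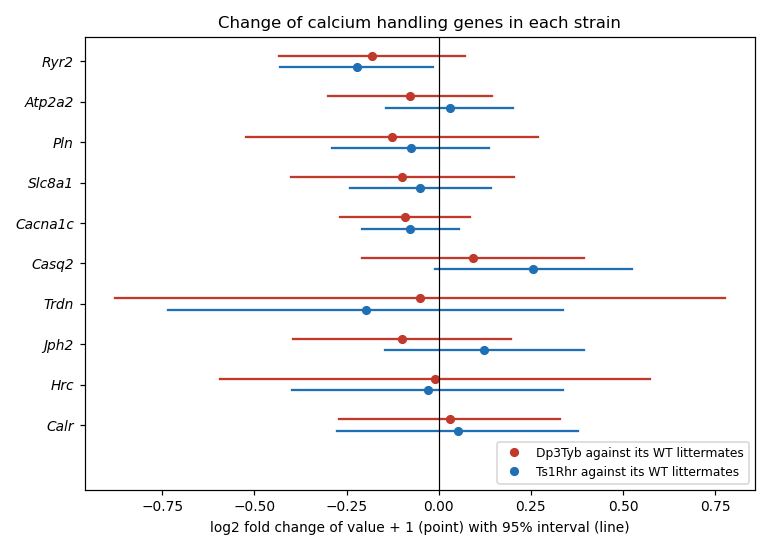
Log2 fold change of value + 1 (horizontal axis) of each of the 10 genes (vertical axis) in Dp3Tyb and Ts1Rhr against their own WT littermates, from limma on 5 against 5 hearts, with lines for the 95% interval. Trdn and Hrc have the longest lines in Dp3Tyb, and the Ryr2 points lie at -0.18 and -0.22.

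The strains and the WT groups were then compared with each other. None of the 10 genes passed the test of a difference in change between the strains (limma interaction over all 20 libraries, where 0.013% of 15348 genes passed). None had an unadjusted p under 0.05 (1.52% of all genes), none passed by edgeR or DESeq2, and the differences ran from -0.22 for Jph2 to 0.15 for Trdn. Between the WT groups of the 2 cohorts, none of the 10 genes passed by limma or DESeq2, and none had an unadjusted limma p under 0.05. Without WT replicate 5 of the Dp3Tyb cohort 5 of them had such a p, as 26.8% of all genes did, and none passed. Over all 14779 genes 0% passed by limma, 4.58% had an unadjusted p under 0.05 and 16 genes passed by DESeq2. Of the 10 genes 7 were lower in the WT group of Ts1Rhr, as 49.5% of all genes were. The log2 differences ran from -0.15 for Atp2a2 to 0.26 for Trdn, beside -0.18 to 0.09 in Dp3Tyb and -0.22 to 0.26 in Ts1Rhr against their own WT. That of Trdn was 0.61 without WT replicate 5 of the Dp3Tyb cohort and 0.083 without WT replicate 4 of the Ts1Rhr cohort.

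Ratios within a heart do not depend on how libraries are scaled, and 5 of them were compared in each strain, 10 comparisons in all. The ratio of Casq2 to Ryr2 was 0.984, 0.763, 0.783, 0.715 and 1.03 in WT and 0.829, 1.07, 1.33, 0.988 and 0.961 in Dp3Tyb. In the other cohort it was 0.977, 0.615, 0.698, 0.736 and 1.19 in WT and 1.11, 1.04, 1.34, 0.985 and 1.28 in Ts1Rhr. All 5 Ts1Rhr hearts and 4 of the 5 Dp3Tyb hearts were above their WT mean, though the ranges overlapped.

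The ratio was 1.39-fold higher in Ts1Rhr (exact permutation p = 0.0556, 2-sided, adjusted p = 0.476) and 1.21-fold higher in Dp3Tyb (exact p = 0.0952, adjusted p = 0.476). Neither passed, in a design whose smallest exact p is 0.00794, which for 1 ratio alone becomes 0.0794 after adjustment over the 10 comparisons, so that no ratio could have passed alone. Without WT replicate 5 of the Ts1Rhr cohort the ratios of the other 4 WT hearts (0.615 to 0.977) lay wholly below those of the 5 Ts1Rhr hearts (0.985 to 1.34), with an exact permutation p of 0.00794 and an adjusted p of 0.0794, and over all libraries left out in turn the adjusted p was 0.0794 to 0.556. The heart left out had the highest ratio of its group, at 1.19. Without the libraries over 10% mitochondrial reads the ratio was 1.31-fold higher in Ts1Rhr, with 3 mutant and 2 WT hearts (exact permutation p = 0.4, adjusted p = 0.778). In Dp3Tyb it was then 1.29-fold higher, with 4 hearts in each group (exact permutation p = 0.0571, adjusted p = 0.333). The ranges overlapped in both strains.

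The ratio of the pump's inhibitor to the pump did not pass either. The ratio of Pln to Atp2a2 was 0.403 ± 0.145 in WT and 0.384 ± 0.102 in Dp3Tyb (exact permutation p = 0.722), and 0.410 ± 0.0779 and 0.378 ± 0.0418 in the Ts1Rhr cohort (exact p = 0.524). Slc8a1 to Atp2a2, the balance of extrusion and reuptake, was 0.248 ± 0.0541 and 0.246 ± 0.0628, then 0.266 ± 0.0321 and 0.251 ± 0.0253. Trdn to Ryr2 and Jph2 to Cacna1c also did not pass, with exact p-values from 0.190 to 0.929 over both strains, and all 10 adjusted p-values were at least 0.476.

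**Figure D3:**
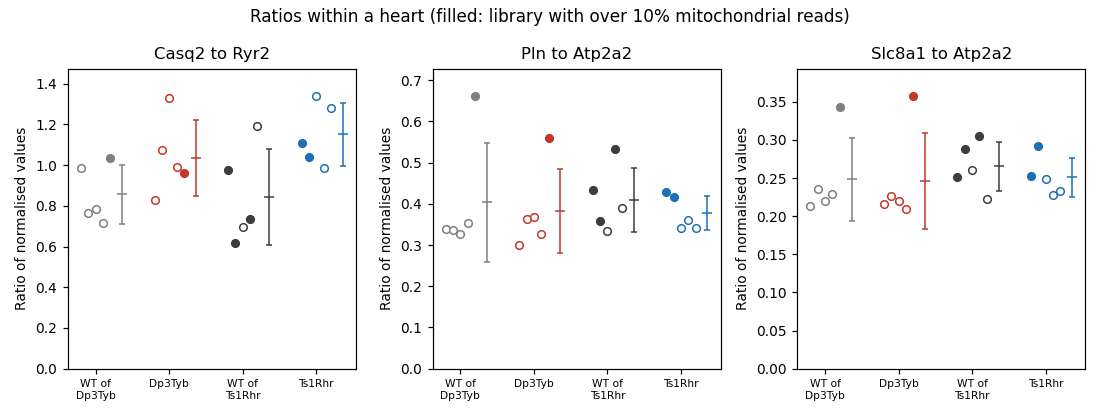
Ratio of the normalised values of 2 genes in the same heart (vertical axis, from 0), by group, with a point for each heart, filled where over 10% of reads were mitochondrial, and mean ± SD beside it (n = 5). Casq2 to Ryr2 is higher on average in both mutant groups (1.04 and 1.15) than in their WT groups (0.856 and 0.844), with overlapping points.

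Some of these genes varied more between hearts than others. Within a group of 5 hearts the highest value was up to 3.63 times the lowest for Trdn and up to 2.46 times for Hrc, against up to 1.35 times for Atp2a2 and 1.26 times for Cacna1c. Trdn varied 3.86-fold over the 20 hearts, Hrc 2.68-fold, Pln 2.16-fold, Jph2 1.89-fold and Calr 1.82-fold, against 1.37-fold for Atp2a2 and 1.29-fold for Cacna1c. The highest Trdn and Hrc values were in the library with the highest mitochondrial share.

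Trdn was 1966 to 4369 in the 7 libraries with over 10% mitochondrial reads and 1133 to 1568 in the other 13, without overlap. Hrc was 1988 to 3464 against 1291 to 1958, and Calr 12199.7 to 14843 against 8174 to 10998, again without overlap. These 3 of the 10 genes separated the sets upwards, as 8.32% of 15333 genes did, and none separated them downwards, as 6.46% did. Both sets hold WT and mutant hearts of both cohorts, and the sets were defined by a library measure, so no test was made between them.

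The mean log2 difference between the sets was 1.02 for Trdn, 0.69 for Hrc, 0.48 for Calr, 0.28 for Pln, 0.20 for Slc8a1 and 0.11 for Ryr2. It was near 0 for Casq2 (0.02) and Cacna1c (0.01) and negative for Atp2a2 (-0.19) and Jph2 (-0.32). The sign was the same for 8 of the genes within each of the 4 groups. For Trdn the difference was 1.76 within the WT group of Dp3Tyb, 1.26 within Dp3Tyb, 0.64 within the WT group of Ts1Rhr and 0.90 within Ts1Rhr, and for Jph2 it was -0.51, -0.44, -0.25 and -0.25. Casq2 and Cacna1c changed sign between groups.

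Within the sets the relation was followed over libraries, without pooling them, since their shares do not overlap. Values were not taken relative to group means here, so differences between groups and cohorts enter r and its p. In the 13 libraries Trdn was correlated with the mitochondrial share (Pearson r = 0.81, permutation p = 0.00088, adjusted p = 0.0208), with a Spearman rho of 0.80 (permutation p = 0.00181, adjusted p = 0.0543), and r was 0.71 without the 2 libraries farthest from the median. In the 7 libraries r was 0.95 (exact permutation p = 0.00278, adjusted p = 0.0208), with rho of 0.86 (exact p = 0.0238, adjusted p = 0.0649), and r was 0.89 without the 2 farthest. For Pln r was 0.91 in the 7 libraries (adjusted p = 0.0219, exact permutation test) but 0.09 in the 13. Hrc had r of 0.64 and 0.80, each with an adjusted p of 0.0762. Both measures come from the same library, and what links them was not tested.

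**Figure D4:**
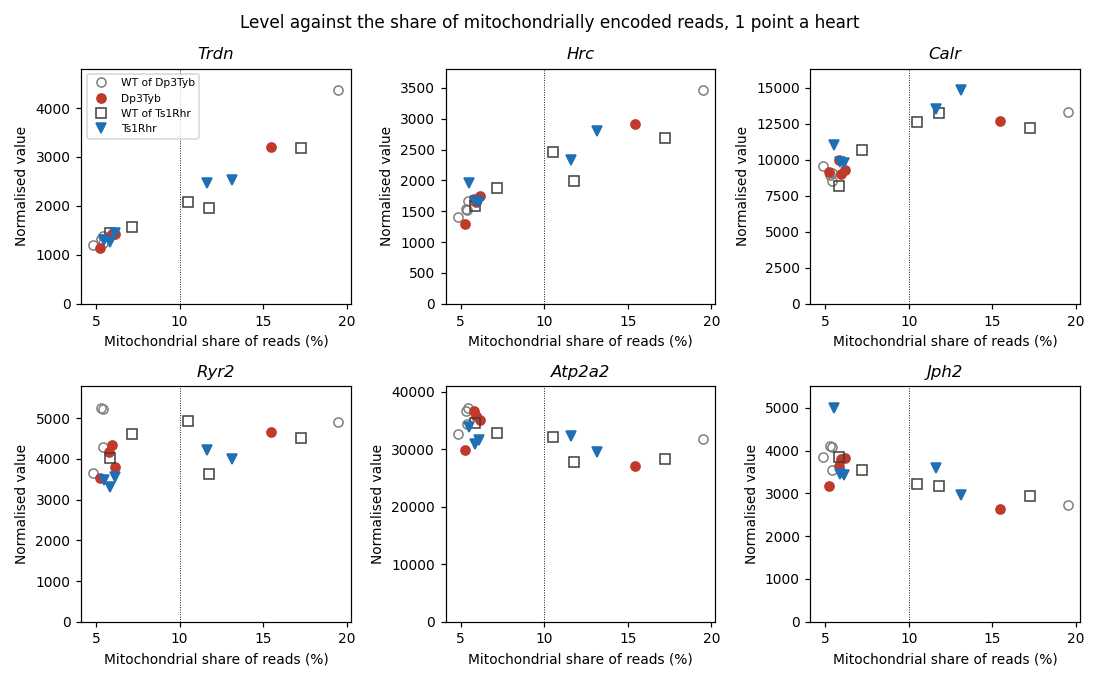
Normalised value (vertical axis, from 0) of 6 of the genes against the share of mitochondrially encoded reads (horizontal axis, percent), with a point for each of 20 hearts marked by group and a dotted line at 10%. Trdn climbs from 1133 to 4369 with the share, and 4 of the 7 libraries over 10% lie below every other library for Jph2.

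These differences were set beside the share of A in the transcripts. Over the 10 genes the Spearman rho between the share of A in the canonical transcript and the difference between the sets was 0.85, and with the share in the coding sequence alone it was 0.87. Trdn, with 44.2% A in its coding sequence, was at one end and Jph2, with 19.6%, at the other. The order was not strict, since Pln (31.7% A) differed by less than Hrc (30.6%) and Calr (26.3%), and Slc8a1, Ryr2 and Casq2 held more A than Calr in the transcript (26.9%, 26.6% and 26.5%) but differed by less. The same relation over 15202 genes, which share the 20 libraries and are not independent, was 0.56, beside -0.43 for the share of G and C and 0.05 for transcript length. The 1521 genes with the least A (10.9% to 20.7%) had a median difference of -0.35 and the 1521 with the most A (30.1% to 47.8%) of 0.34. This is a description of composition, and what links it to the mitochondrial share was not tested.

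**Figure D5:**
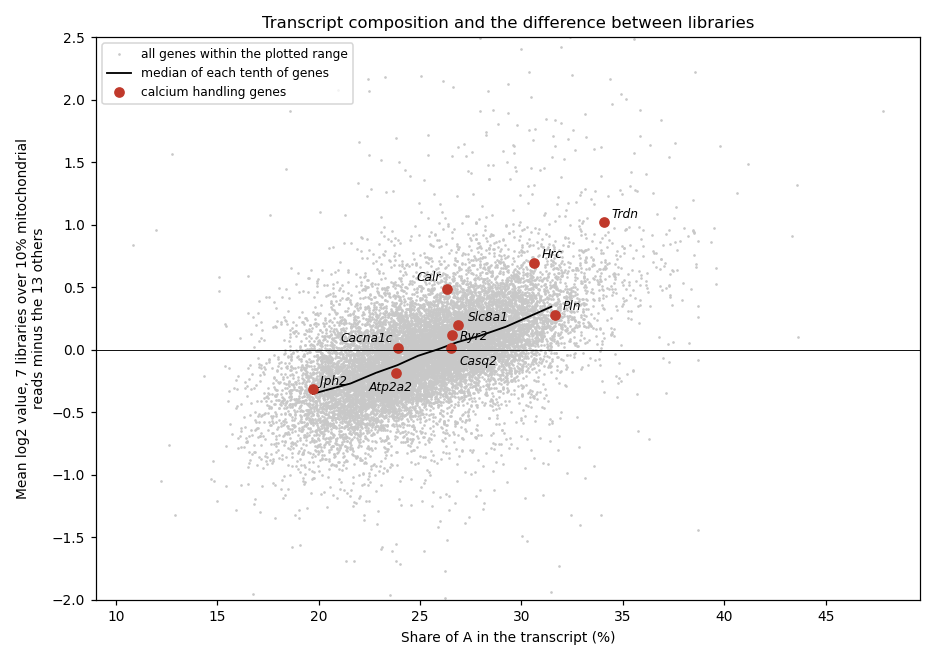
Share of A in the canonical transcript (horizontal axis, percent) against the mean log2 difference between the 7 libraries with over 10% mitochondrial reads and the 13 others (vertical axis). Grey points are genes (37 of 15202 lie outside the plotted range), the line joins the medians of 10 equal bins of genes, and red points are the 10 calcium handling genes, from Jph2 at 19.7% and -0.32 to Trdn at 34.1% and 1.02.

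A second measure that moved with some of these genes was the cardiomyocyte marker score, the mean log2 deviation of 18 sarcomeric and other cardiomyocyte genes that include none of the 10. With each value taken relative to its group mean, 3 of the 10 genes passed the test of correlation with it over 20 hearts. Pearson r was 0.65 for Cacna1c (permutation p = 0.0016, adjusted p = 0.0208), 0.64 for Slc8a1 (permutation p = 0.00236, adjusted p = 0.0208) and 0.61 for Ryr2 (permutation p = 0.00438, adjusted p = 0.0219), with rho of 0.62, 0.56 and 0.54 (permutation p = 0.00383, 0.0105 and 0.0150). Without the 2 libraries farthest from the median, r was 0.64, 0.52 and 0.51. The adjustment covers 30 relations, and on Spearman's rho the lowest adjusted p among them was 0.0543. Values were permuted across groups although group means had been removed, so p-values for the score, also within cohorts, may be too low.

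Within cohorts of 10 hearts, with p-values adjusted over the 10 relations of a cohort, r for Cacna1c was 0.79 with Ts1Rhr (permutation p = 0.00448, adjusted p = 0.0448) and 0.59 with Dp3Tyb (permutation p = 0.0734, adjusted p = 0.155). For Ryr2 it was 0.75 with Dp3Tyb (permutation p = 0.0132, adjusted p = 0.132) and 0.45 with Ts1Rhr (permutation p = 0.195, adjusted p = 0.390). For Slc8a1 it was 0.71 with Dp3Tyb (permutation p = 0.0274, adjusted p = 0.137) and 0.58 with Ts1Rhr (permutation p = 0.0830, adjusted p = 0.355). Calr, which most cell types of the heart use, had the lowest r over 20 hearts, at 0.23, followed by Trdn at 0.31. The marker score itself was between -0.32 and 0.04 in Dp3Tyb hearts, beside -0.13 and 0.11 in their WT littermates. In Ts1Rhr hearts it was between -0.19 and 0.23, beside -0.04 and 0.07.

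The wider pathway was read from 77 further genes in 8 lists. By limma none passed the threshold among 73 tested in Dp3Tyb or 74 tested in Ts1Rhr, and the median log2 fold changes were 0.04 and 0.04 beside -0.00 and -0.00 over all genes. A single gene in Dp3Tyb (1.37% of those tested, beside 2.8% of all genes) and 3 in Ts1Rhr (4.05%, beside 5.52%) had an unadjusted limma p under 0.05. Ryr3 was the only one to do so in both strains, at -0.24 ± 0.10 in Dp3Tyb and -0.29 ± 0.12 in Ts1Rhr (unadjusted limma p of 0.0391 and 0.0292), the same sign as Ryr2. In Ts1Rhr the others were Ryr1 (1.08 ± 0.30, unadjusted limma p of 0.00378, at values of 13.7 to 21.6 against 3.83 to 14.1) and Slc8a3 (0.33 ± 0.14, unadjusted limma p of 0.0363). Their adjusted p was 0.795 in Ts1Rhr.

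List by list the medians stayed near 0. In Dp3Tyb they were 0.11 for the 9 L-type and T-type channel subunits, 0.06 for the 15 release channel paralogs and regulators, -0.06 for 10 pump paralogs and regulators, 0.05 for 6 exchangers and extrusion pumps and -0.05 for 8 dyad and T-tubule genes. Those for store-operated entry, mitochondrial calcium uptake and lumenal calcium-binding and folding proteins were 0.10, -0.02 and 0.04. In Ts1Rhr the 8 medians lay between -0.02 and 0.15. The small regulators of the pump Mrln and Strit1 had a median of 0, while Sln, sarcolipin, was at 55.1 to 125.

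The genes most like 3 of the members over the 20 hearts were named by the lowest SD of the log2 ratio, among 10896 genes with a mean value of at least 100. Among those nearest to Atp2a2 were Atp5f1a (SD 0.06), Afg3l2, Vdac3 and Uqcc1, nuclear genes of mitochondrial proteins, where the median gene had an SD of 0.21. Those nearest to Calr were Hsp90b1 (0.07), Stip1, Taf12, Mrps25 and Tpm3, the first a chaperone of the same compartment. Those nearest to Ryr2 were Tmem245 (0.09), Fry, Plxna4, Macf1 and Ryr3 (0.11).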

How the data were processed

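RNA came from whole E13.5 hearts, and poly(A) libraries (KAPA mRNA HyperPrep) were sequenced on a HiSeq 4000. Per the submitters' processing notes, Trimmomatic 0.36, STAR 2.5.2a, RSEM 1.2.31, DESeq2 and build GRCm38 were used. The authors deposited 1 table of normalised values, which are counts divided by a size factor for each library, so its unit is a scaled signal. All values (100%, tolerance 1e-06 relative) were whole multiples of a step for each library, and whole reads were recovered from these steps. Of 48795 Ensembl IDs, 91.3% matched a symbol in GENCODE vM39.

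Groups follow the genotype label, and replicate numbers are accession order. Labels do not say whether hearts shared a litter, so p-values measure the spread between these hearts. No 2 libraries of a group were alike (lowest mean chi-square 3.90).

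Mutant and WT hearts of each cohort were compared with limma 3.58.1 (trended, robust) on log2(value + 1), in R 4.3.3, for genes whose value reached 10 in 5 or more of the libraries fitted. Adding 1 slightly understates changes of low genes. P-values were adjusted by Benjamini-Hochberg over all genes. Alternatives were a pseudocount of 0.1, no filter, TMM scaling, edgeR 4.0.16 and DESeq2 1.42.0 on recovered reads, 1 fit of all libraries, array weights, the marker score as a term, libraries over 10% mitochondrial reads left out, and each library left out. The mitochondrial share as a term was added after seeing the data. Ratios used exact 2-sided permutation tests, and relations 100000 permutations (exact for 7 libraries). For the marker score, values relative to group means were permuted across groups, not within them. Lengths and composition came from Ensembl canonical transcripts. Scripts were tested on simulated data.

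All 10 members were named, as were their paralogs, the 5 genes most alike to 3 of them (1 is not reported here), and in each strain up to 5 pathway genes of unadjusted p under 0.05, by size of change. Correlations with the mitochondrial share were planned over all libraries, with values relative to group means. They were computed within the 2 sets instead, since the shares fall apart, and without taking values relative to group means. Members and lists were chosen with earlier results of these data known.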

Additional observations from a re-analysis of the deposited data

Results flagged for a closer look

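In groups of 5 hearts, 13 values lay far from the other 4 by Dixon's criterion, among 60 groups checked, and chance gives about 1 in 20. All 13 came from WT replicate 5 and Dp3Tyb replicate 5 of the Dp3Tyb cohort, the 2 libraries of that cohort with over 10% mitochondrial reads (19.5% and 15.5%). In the WT heart these were Pln at 21086, Trdn at 4369, Hrc at 3464 and Calr at 13347. In the Dp3Tyb heart they were Trdn at 3203, Hrc at 2915 and Calr at 12720.4. Among ratios, Pln to Atp2a2 was 0.662 in the WT heart and 0.559 in the Dp3Tyb heart, Trdn to Ryr2 was 0.891 and 0.687, and Slc8a1 to Atp2a2 was 0.344 and 0.358. The WT library also had the lowest depth, 6600839 reads. Which property of these 2 libraries goes with the values was not tested.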

How the results depend on the processing

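None of the 10 genes passed the threshold in any contrast under any alternative run with limma, edgeR or DESeq2. The number of all genes passing moved. In Dp3Tyb it was 8, and 34 with DESeq2, 4 with no filter, 17 in 1 fit of all 20 libraries, 57 with array weights, 4 with the cardiomyocyte score as a term, 30 without the libraries over 10% mitochondrial reads, 45 with the mitochondrial share as a term (added after seeing the data), and 2 to 13 when 1 library was left out (13 without WT replicate 5). In Ts1Rhr it was 4, and 25, 11 (1 fit), 16 (array weights), 0 without the libraries over 10% by limma (496 at an unadjusted p under 0.05), 25 with the mitochondrial term and 1 to 6 when 1 library was left out. For the difference between strains it was 2, and 0 to 3 when 1 library was left out. Between WT groups it was 0, and 16 with DESeq2, 1 with the mitochondrial term and 0 to 9 when 1 library was left out (9 without WT replicate 5 of the Dp3Tyb cohort).

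Signs of small log2 fold changes turned, and the cause was not tested. In Dp3Tyb, array weights gave 0.076 for Trdn and 0.075 for Hrc, the cardiomyocyte score 0.0082 for Slc8a1, 0.10 for Trdn and 0.13 for Hrc, leaving out libraries over 10% gave 0.048 for Trdn and 0.049 for Hrc, and the mitochondrial term 0.022 for Hrc. In Ts1Rhr, leaving out libraries over 10% gave -0.068 for Atp2a2 and 0.028 for Hrc, the mitochondrial term -0.012 for Atp2a2, 0.034 for Trdn and 0.11 for Hrc, and array weights -0.15 for Calr. The difference between strains became 0.099 for Casq2, 0.029 for Atp2a2, 0.083 for Pln and 0.017 for Slc8a1 without libraries over 10%, -0.057 for Trdn and -0.11 for Hrc with the mitochondrial term, and for Hrc -0.0089 with edgeR and -0.018 with DESeq2. Between WT groups it became 0.098 for Casq2, 0.032 for Pln and 0.042 for Slc8a1 without libraries over 10% and -0.021 for Trdn with the mitochondrial term. Jph2 to Cacna1c in Dp3Tyb became 0.033 without libraries over 10%.

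Leaving out 1 library gave ranges across 0. In Dp3Tyb they were -0.20 to 0.038 for Pln, -0.30 to 0.30 for Trdn, -0.19 to 0.23 for Hrc and -0.059 to 0.14 for Calr, the upper ends being without WT replicate 5 and the lower without Dp3Tyb replicate 5. In Ts1Rhr they were -0.010 to 0.068 for Atp2a2, -0.14 to 0.063 for Hrc and -0.063 to 0.11 for Calr. Other values moved without turning. In Dp3Tyb these were -0.12 to -0.011 (without Dp3Tyb replicate 5) for Atp2a2, -0.17 to -0.0035 (without WT replicate 5) for Slc8a1, -0.20 to -0.011 (without Dp3Tyb replicate 5) for Jph2, 0.025 (without Dp3Tyb replicate 3) to 0.19 for Casq2 and -0.13 to -0.049 (without WT replicate 2) for Cacna1c. In Ts1Rhr they were -0.13 to -0.011 (without WT replicate 4) for Pln, -0.34 to -0.025 (without WT replicate 4) for Trdn, -0.11 to -0.0046 (without WT replicate 2) for Slc8a1 and 0.0079 (without Ts1Rhr replicate 3) to 0.20 for Jph2. For the difference between strains, ranges across 0 were -0.043 to 0.10 for Ryr2, -0.11 to 0.50 for Trdn, -0.056 to 0.028 for Cacna1c, -0.11 to 0.093 for Calr, -0.16 to 0.26 for Hrc, -0.13 to 0.11 for Pln and -0.12 to 0.047 for Slc8a1, and the other genes moved from -0.32 (without WT replicate 5 of the Dp3Tyb cohort) to -0.11 (Jph2), -0.27 to -0.070 without that heart (Casq2) and -0.15 to -0.040 without Dp3Tyb replicate 5 (Atp2a2). Between WT groups, ranges across 0 were -0.061 to 0.022 for Cacna1c, -0.16 to 0.075 for Pln and -0.11 to 0.055 for Slc8a1. For log2 ratios in Dp3Tyb they were -0.19 to 0.14 for Pln to Atp2a2, -0.074 to 0.46 for Trdn to Ryr2, -0.16 to 0.10 for Slc8a1 to Atp2a2 and -0.086 to 0.11 for Jph2 to Cacna1c, and in Ts1Rhr -0.085 to 0.18 for Trdn to Ryr2. Of the 3 genes correlated with the marker score over 20 hearts, 0 passed within the Dp3Tyb cohort and 1 within the Ts1Rhr cohort, each of 10 hearts, at an adjusted p under 0.05 over the 10 relations of a cohort. The p-values of these relations may be too low, since values were permuted across groups.

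No paired analysis was run. The labels name no litter or pair of hearts, the replicate numbers only follow sample order, and neighbours in that order were not taken as pairs. The 95% interval of Trdn in Dp3Tyb held folds of 0.544 to 1.71 with 5 hearts a group, but on the log2 scale it was -0.11 to 0.11 with the mitochondrial share as a term and -0.12 to 0.21 without the libraries over 10%.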

Other observations

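Other calcium handling genes also differed between the 7 libraries with over 10% mitochondrial reads and the 13 others, and the following were chosen after their values were seen. The mean log2 difference was 1.31 for Nexn, an actin-binding protein of the sarcomere that is also tied to the dyad, and 0.80 for S100a1, a small calcium sensor that acts on Ryr2 and the pump. It was -0.76 for Slc8b1, the mitochondrial sodium-calcium exchanger. Nexn was 5474 to 28611 over the 20 hearts.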
